A study of Homo sapiens with 8 samples.

Results

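Splicing factors of the SR and hnRNP families were followed in MDA-MB-157 cells at low and at high glucose. The genes were taken by symbol from the table of all genes and comprised 43 of its 21059 genes. Of these, 16 were SR genes (SRSF1 to SRSF12, TRA2A, TRA2B, SRRM1 and SRRM2), 21 were hnRNP genes, whose symbols start with HNRNP, and 6 were other regulators (PTBP1, PTBP2, PTBP3, RBFOX2, ESRP1 and ESRP2). The symbol pattern also matched 4 pseudogenes, HNRNPCP1, HNRNPCP2, HNRNPCP7 and HNRNPLP2, which were dropped. MDA-MB-157 is a breast cancer cell line that lacks the estrogen receptor, and all 8 libraries come from this 1 line. After conditioning in low glucose, the cells were kept for 48 hours in serum-free medium with glucose at 5 mM in 4 libraries (low glucose) and at 25 mM in another 4 (high glucose), and the comparison asks what a diabetes-like glucose level does to tumor cells in culture. Among these libraries there was no osmotic control, so glucose and osmolarity cannot be told apart. The sources used here do not say whether the replicates came from repeated experiments, so p-values measure only the spread between these libraries, which may be technical.

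SR proteins bind short sequences in exons through RNA recognition motifs and, through a tail rich in arginine and serine, help to recruit the spliceosome to nearby splice sites. The hnRNP proteins coat nascent RNA and often act against exon inclusion, so that the balance between both families sets which exons enter the mature mRNA. Many of these genes also carry so-called poison exons, whose inclusion sends their own mRNA to nonsense-mediated decay. The table gives 1 value per gene, and no isoform or splice choice was measured.

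Values are counts per 1000000 reads (CPM) after trimmed mean (TMM) scaling, and each library rested on an estimated 9721637 to 12482458 reads, for which 3 reads, taken as the floor, are worth 0.212 to 0.267 CPM. These figures cover counting error only. Of 6 mesenchymal markers VIM (4091 and 2967 CPM in the low and high group), FN1 and SNAI2 fell, CDH2 and ZEB1 rose, and ZEB2 did not pass. Of 6 epithelial markers KRT8 (131 and 88.3 CPM) and KRT18 (233 and 170 CPM) fell, EPCAM and CLDN4 rose by 0.54 and 0.38 on the log2 scale, and CDH1 and KRT19 lay under 1 CPM and did not pass. The leukocyte marker PTPRC was at 0.0997 and 0.123 CPM and CD68 at 11.1 and 12.1 CPM, and neither passed. Of the endothelial markers PECAM1 rose while VWF and CDH5 fell, with group means of at most 2.13 CPM. The part of these shifts in the results on splicing factors was not tested. In bulk libraries like these, fewer cells of one kind and less RNA per cell cannot be told apart. High glucose replicate 1 stood apart in how its values followed transcript length, which is described with SRRM2 and the members it touched.

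Splicing factor transcripts changed in both directions at high glucose, mostly by modest amounts and more often upward. Of the 43 members, 20 rose (46.5%), 6 fell and 17 did not pass the test (limma on log2(CPM + 1) over all genes, 2-sided, Benjamini-Hochberg adjusted p under 0.05). Among all genes tested 46.8% passed, 22.0% as higher and 24.8% as lower. Since splicing factors are abundant, genes with a mean of at least 5 CPM are the closer background, and of these 66.9% passed, 33.6% as higher and 33.3% as lower. At that level 39 members remained, of which 64.1% passed, 51.3% as higher and 12.8% as lower, so the share of changed members was near the background while the split between directions leaned upward. In all 26 called members the 4 libraries of one group lay beyond the 4 of the other, and among members of at least 5 CPM this held for 25 of 39 beside a background of 65.0%. The median log2 change was 0.15 over all members and -0.01 over all genes. Sizes were small, since the median absolute log2 change was 0.26 among called members and 0.50 among called genes of at least 5 CPM. No member changed by 1 or more on the log2 scale, and 23 of the 26 called members changed by less than 0.5.

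**Figure D1:**
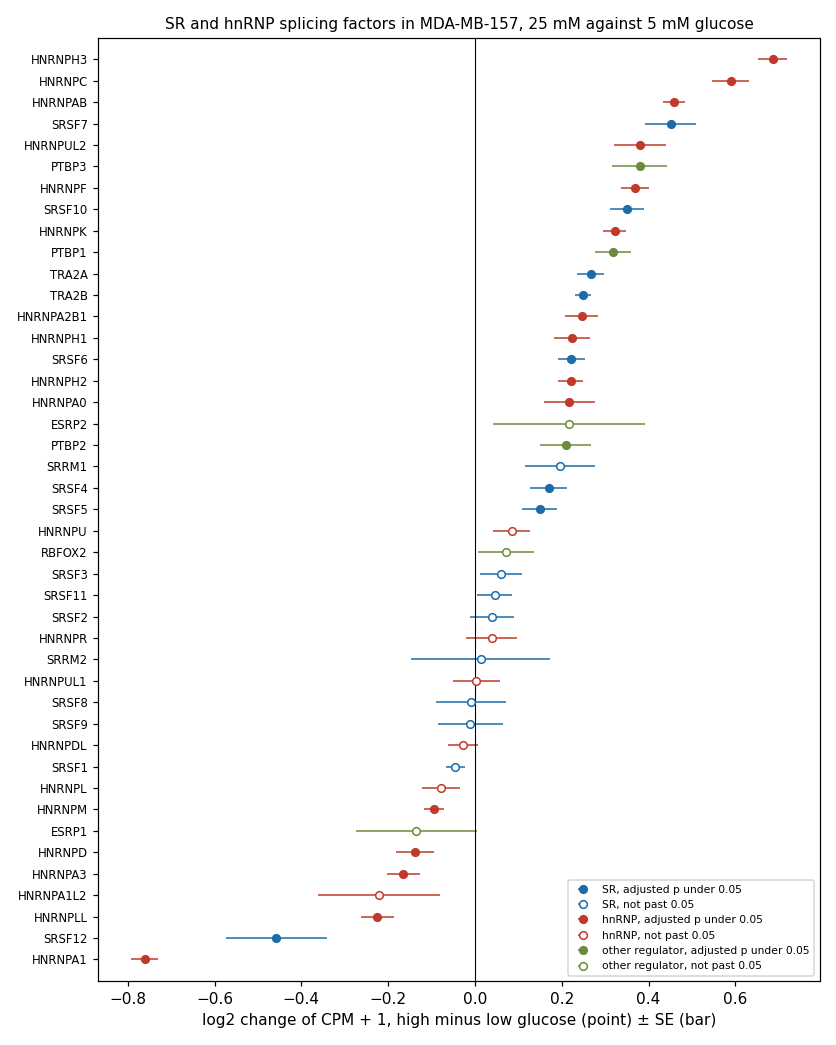
Each row is 1 of the 43 splicing factor genes, and the point gives its log2 change of CPM + 1 at high minus low glucose with a bar of ± 1 SE (n = 4 libraries per group); filled points passed an adjusted p of 0.05. HNRNPA1 lies alone at -0.76 on the left, while HNRNPH3 at 0.69 and HNRNPC at 0.59 lie farthest to the right.

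The 2 families had close medians with values as deposited, while removal of the length trend gave 0.12 for SR and 0.04 for hnRNP genes. Of the 16 SR genes 7 rose, 1 fell and 8 did not pass, with a median log2 change of 0.10. Of the 21 hnRNP genes 10 rose, 5 fell and 6 did not pass, with a median of 0.08. Among the other regulators 3 of 6 rose, none fell by limma, and the median was 0.21. Summed over the SR genes, the level was 2430 ± 48.3 CPM under low and 2634 ± 81.2 CPM under high glucose (mean ± SD, n = 4 each), a difference of 8.40%. The hnRNP genes summed to 7176 ± 62.2 CPM under low and 7734 ± 239 CPM under high glucose, a difference of 7.78%. With HNRNPA1 left out of that sum the values were 6132 ± 50.1 and 7118 ± 226 CPM, a difference of 16.1%, so 1 gene offset a large part of the rise of the others.

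HNRNPA1 changed more than any other member, and it fell. Its protein is an abundant repressor of exon inclusion that opposes SRSF1 in the choice of splice sites and, together with HNRNPA2B1 and PTBP1, is known to favor the PKM2 form of pyruvate kinase, the last enzyme of glycolysis. The gene (ENSG00000135486.17) lies on the plus strand of chromosome 12 from 54673977 to 54680872 in the GENCODE annotation mapped to GRCh37. The low glucose libraries held 1039, 1034, 1065 and 1039 CPM, and the high glucose libraries held 634, 589, 618 and 624 CPM. The groups were far apart, with a gap several times wider than the range within either. The mean fell by 41.0%, from 1044 ± 13.9 to 616 ± 19.3 CPM (SD, n = 4), which is a log2 change of -0.76 (SE 0.0309, limma adjusted p = 3.69e-06). Over the alternative settings the change ranged from -0.80 to -0.67.

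Much of the HNRNPA1 transcript is repeated elsewhere in the genome. Of its 31-base words, 35.1% also occur in transcripts of 82 other genes, foremost HNRNPA1L3, so how reads were shared out could bear on its level. The 7 HNRNPA1 pseudogenes in the table summed to between 8.94 and 10.1 CPM at low glucose and between 5.93 and 9.10 CPM at high glucose. HNRNPA1P48, the highest of them, fell from 5.64 to 3.56 CPM (log2 change -0.54, limma adjusted p = 0.0147). HNRNPA1P49 fell as well, from 0.224 to 0.0605 CPM (limma adjusted p = 0.0160). HNRNPA1P10 was at 1.32 CPM under low and 2.15 CPM under high glucose (adjusted p = 0.187), and the remaining copies did not pass either. The part of shared reads in the fall of HNRNPA1 was not tested. HNRNPA1L2, a retrocopy that shares 100% of its words with other genes, had 3.25 ± 0.595 CPM under low and 2.65 ± 0.553 CPM under high glucose and did not pass the test (adjusted p = 0.251).

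HNRNPA2B1, a relative of HNRNPA1 and a reader of methylated adenosines in RNA, moved the other way. It was the most abundant member in CPM, with 1117, 1110, 1136 and 1130 CPM at low glucose and 1285, 1295, 1367 and 1383 CPM at high glucose. Every high glucose library was above every low glucose library, and the log2 change was 0.25 (SE 0.0377, limma adjusted p = 0.00148). Under quantile normalization its log2 change was 0.47. The gene (chromosome 7, 26210771 to 26241149, minus strand) overlaps exons of CBX3 and NFE2L3 on the other strand, and since the use of strand in counting is not given in the sources used here, some of its reads may belong to those genes.

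Within each library the ratio of HNRNPA1 to HNRNPA2B1 does not depend on library scaling. The log2 ratio was -0.11 ± 0.0119 at low glucose (SD, n = 4), near parity, and -1.11 ± 0.0619 at high glucose. As a linear ratio this is 0.930 and 0.463. The difference of -1.01 reached the smallest p that an exact permutation test allows for 4 against 4 libraries (2-sided, 0.0286), but over the 16 ratios tested the adjusted p was 0.0653. No pair could pass that adjustment by its own values alone. HNRNPA1 made up 14.6% ± 0.0954 of summed hnRNP CPM at low and 7.97% ± 0.198 at high glucose, whereas HNRNPA2B1 made up 15.7% ± 0.0666 and 17.2% ± 0.324.

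Per kilobase of the annotated transcript, HNRNPA1 dropped in the order of the family. At low glucose the levels per kilobase were 310 CPM for HNRNPA2B1, 280 for HNRNPH1, 279 for HNRNPA1, 230 for HNRNPK, 170 for HNRNPC and 145 for HNRNPAB. At high glucose they were 367 for HNRNPA2B1, 327 for HNRNPH1, 288 for HNRNPK, 256 for HNRNPC, 199 for HNRNPAB and 165 for HNRNPA1. HNRNPH1 and HNRNPA1 were nearly equal at low glucose, and these levels depend on the canonical transcript chosen for each gene.

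**Figure D2:**
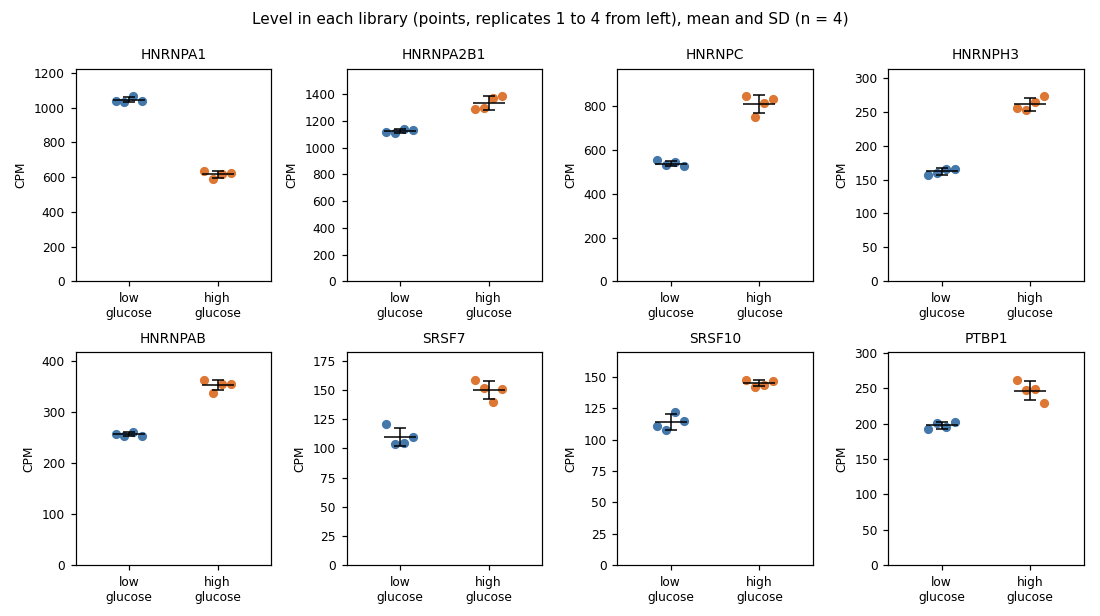
Each panel plots the CPM of 1 gene in the 4 low glucose (blue) and 4 high glucose (orange) libraries, replicates 1 to 4 from left to right, with the mean and SD in black (n = 4); the axes start at 0. HNRNPA1 is lower at high glucose and the other 7 genes are higher, and in no panel do the groups overlap.

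HNRNPH3 rose most. It belongs with HNRNPH1, HNRNPH2 and HNRNPF to the proteins that bind runs of guanines near splice sites. The gene (ENSG00000096746.17, chromosome 10, 70090931 to 70102950, plus strand) gave 157, 160, 166 and 165 CPM at low glucose and 255, 252, 265 and 273 CPM at high glucose. The groups did not overlap, and the mean rose by 61.2% (log2 change 0.69, SE 0.0327, limma adjusted p = 6.43e-06). Exons of RUFY2 overlap it on the other strand. HNRNPF rose as well, from 134, 129, 133 and 131 CPM to 177, 160, 175 and 170 CPM (log2 change 0.37, SE 0.0327, adjusted p = 0.000101 by limma). HNRNPH1 had 619, 614, 633 and 642 CPM at low and 691, 714, 759 and 768 CPM at high glucose, with a log2 change of 0.22 (SE 0.0406, limma adjusted p = 0.00327). HNRNPH2, on the X chromosome, rose from 101 ± 2.98 to 118 ± 3.26 CPM with the same log2 change of 0.22 (limma adjusted p = 0.000652). It shares 19.4% of its words with 5 other genes, foremost RPL36A-HNRNPH2, whose exons overlap it on the same strand. The part of shared reads in its rise was not tested. All 4 members of this subfamily thus rose, HNRNPH3 by the largest amount, and under quantile normalization HNRNPH2 kept its call with a log2 change of 0.10.

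HNRNPC, whose protein binds uridine tracts and keeps the splicing factor U2AF2 off cryptic exons in Alu repeats, had the next largest rise. Its low glucose libraries held 553, 531, 544 and 525 CPM and its high glucose libraries held 846, 752, 813 and 834 CPM. The lowest high glucose library was well above the highest low glucose library, and the mean rose by 50.7% (log2 change 0.59, SE 0.0427, limma adjusted p = 3.81e-05). HNRNPC went from 7.50% ± 0.168 to 10.5% ± 0.383 of summed hnRNP CPM. It lies on chromosome 14 from 21677295 to 21737653 on the minus strand and shares 22.7% of its words with 12 other genes, foremost the pseudogene HNRNPCP2.

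HNRNPAB, which binds single-stranded nucleic acids and is related to HNRNPD, came next among the rises. It had 258, 252, 262 and 254 CPM at low glucose and 363, 338, 355 and 355 CPM at high glucose. The groups were separate, with a log2 change of 0.46 (SE 0.0259, limma adjusted p = 1.29e-05). The gene is on chromosome 5 from 177631534 to 177638164, plus strand, and exons of PHYKPL overlap it on the other strand.

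The 250 bases upstream of a RefSeq start are shown for these 3 genes because theirs were the largest rises and because such windows hold the core promoter. This start can differ from the gene positions given above. The sequences are those of RefSeq on GRCh38.p14, 5′ to 3′ on the strand of the gene, and for HNRNPH3 the most upstream of 3 windows was taken. Capitals mark matches, on either strand, to the E-box CACGTG, the ETS motif CCGGAAGT, the CCAAT box CCAAT, the TATA box TATAAA, the GC box GGGCGG and the palindromic NRF1 motif.
HNRNPH3, chr10:68331443-68331692, plus strand: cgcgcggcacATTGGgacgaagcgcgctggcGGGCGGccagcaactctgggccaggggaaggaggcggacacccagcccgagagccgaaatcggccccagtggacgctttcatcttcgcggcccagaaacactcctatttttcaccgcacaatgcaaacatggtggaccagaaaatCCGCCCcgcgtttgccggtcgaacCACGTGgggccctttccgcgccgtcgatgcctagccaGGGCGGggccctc
HNRNPC, chr14:21269443-21269692, minus strand: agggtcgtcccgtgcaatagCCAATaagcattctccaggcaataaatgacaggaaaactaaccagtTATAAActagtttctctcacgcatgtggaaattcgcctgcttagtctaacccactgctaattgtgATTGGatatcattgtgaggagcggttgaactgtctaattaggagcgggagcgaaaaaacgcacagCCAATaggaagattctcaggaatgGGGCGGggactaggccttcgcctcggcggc
HNRNPAB, chr5:178204283-178204532, plus strand: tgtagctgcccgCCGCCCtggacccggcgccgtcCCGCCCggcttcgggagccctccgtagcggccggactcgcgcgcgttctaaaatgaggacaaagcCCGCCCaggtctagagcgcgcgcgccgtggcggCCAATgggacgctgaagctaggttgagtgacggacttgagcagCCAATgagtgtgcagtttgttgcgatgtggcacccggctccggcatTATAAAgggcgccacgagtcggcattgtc
All 3 windows hold CCAAT and GC boxes, and of the 3 the HNRNPH3 window alone holds the E-box. Across the family, 37 members had 54 such windows, and HNRNPA1, TRA2A, RBFOX2, ESRP1, ESRP2 and SRSF2 had none in the table used. The GC box occurred in 61.1% of the members' windows and in 42.6% of all 35116 windows, and the CCAAT box occurred in 42.6% and 32.0%. CACGTG occurred in 7 of the 54 windows, beside 6.35% of all windows, of which 2 belonged to genes that rose. The TATA box was in 11.1% and 10.7%, the ETS motif in 5.56% and 3.42%, and the NRF1 motif in 0 of 54 windows beside 1.03% of all. The windows of all genes were taken whether or not the gene is expressed in these cells, and no background of expressed genes was counted. These are letter matches, and no binding was measured.

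HNRNPK, an RNA- and DNA-binding protein with KH domains that prefers cytidine-rich sequence, was among the most abundant members. It gave 669, 656, 676 and 659 CPM at low glucose and 843, 807, 832 and 846 CPM at high glucose. Its groups did not overlap (log2 change 0.32, SE 0.0262, limma adjusted p = 6.59e-05), and 31.5% of its words are shared with 5 other genes. HNRNPUL2, an HNRNPU-like protein with a role in DNA damage signaling, had 109, 102, 104 and 94.0 CPM at low and 123, 131, 143 and 136 CPM at high glucose (log2 change 0.38, SE 0.0589, limma adjusted p = 0.00155). It shares 45.5% of its words with 2 genes, chiefly the readthrough gene HNRNPUL2-BSCL2. That gene was at 18.4 CPM under low and 26.0 CPM under high glucose and did not pass the test (adjusted p = 0.0578). The part of reads shared with it was not tested. HNRNPA0, which binds AU-rich elements, rose from 123 ± 4.76 to 143 ± 11.8 CPM (log2 change 0.22, adjusted p = 0.0201), but the call was lost under several settings, with adjusted p of 0.0514 without low glucose replicate 1, 0.0554 without low glucose replicate 2 and 0.266 under quantile normalization.

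Apart from HNRNPA1, 4 hnRNP genes fell, and each fell by little. HNRNPLL, known as the switch of CD45 splicing in T cells, went from 47.0 ± 2.22 to 40.0 ± 1.11 CPM (log2 change -0.23, limma adjusted p = 0.00225). HNRNPA3, a relative of HNRNPA1, went from 534 ± 2.83 to 477 ± 24.6 CPM (log2 change -0.16, adjusted p = 0.00984 by limma). HNRNPD, also called AUF1 and known to promote decay of AU-rich mRNA, went from 191 ± 3.63 to 174 ± 10.3 CPM (log2 change -0.14, limma adjusted p = 0.0335). HNRNPM, which binds GU-rich sequence, went from 215 ± 3.31 to 202 ± 5.20 CPM (log2 change -0.09, limma adjusted p = 0.0126). The groups did not overlap for any of these 4 genes. HNRNPA3 shares 18.9% of its words with 2041 other genes, and the part of shared reads was not tested. The HNRNPD call was lost when any 1 of the low glucose libraries, high glucose replicate 1 or high glucose replicate 2 was left out, with adjusted p from 0.0515 to 0.0854, and under median-of-ratios scaling both HNRNPD (adjusted p = 0.118) and HNRNPM (adjusted p = 0.0682) lost their calls. HNRNPA3 lost its call under quantile normalization (-0.14, adjusted p = 0.0561).

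The remaining hnRNP genes did not pass the test, although most are abundant. HNRNPU, a scaffold protein of the nuclear matrix, was at 589 ± 6.60 and 625 ± 36.1 CPM at low and high glucose (log2 change 0.08, adjusted p = 0.155). HNRNPL, which binds CA repeats, was at 240 ± 9.35 and 228 ± 11.7 CPM (log2 change -0.08, adjusted p = 0.194), and 45.6% of its words are shared. Log2 changes of HNRNPDL, HNRNPR and HNRNPUL1 were -0.03, 0.04 and 0.00, each smaller than its SE with all libraries and the deposited scaling. Without high glucose replicate 1 both HNRNPU (0.11, limma adjusted p = 0.0434) and HNRNPL (-0.11, limma adjusted p = 0.0368) passed, and under quantile normalization HNRNPL (-0.16, adjusted p = 0.0191) and HNRNPDL (-0.12, adjusted p = 0.0447) passed as lower.

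Among SR genes, SRSF7 rose most. Its protein carries a zinc knuckle and also takes part in mRNA export. The low glucose libraries gave 121, 104, 104 and 110 CPM, and the high glucose libraries gave 158, 152, 140 and 151 CPM. The groups were separate, with a log2 change of 0.45 (SE 0.0592, limma adjusted p = 0.000685). SRSF10, known to turn into a general splicing repressor when it loses its phosphates, had 111, 108, 122 and 115 CPM at low and 147, 142, 144 and 147 CPM at high glucose (log2 change 0.35, SE 0.0393, limma adjusted p = 0.000319). Neither gene lost its call under any of the 14 alternatives run. SRSF7 lies on chromosome 2 from 38970741 to 38978636 and SRSF10 on chromosome 1 from 24290837 to 24307417, both on the minus strand.

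The transformer homologs TRA2A and TRA2B, which bind GAA-rich exonic enhancers, rose in step. TRA2A had 77.7, 74.4, 77.5 and 71.9 CPM at low and 88.5, 89.3, 92.9 and 92.7 CPM at high glucose, with a log2 change of 0.27 (SE 0.0313, limma adjusted p = 0.000391). TRA2B went from 135 ± 1.96 to 160 ± 2.79 CPM (log2 change 0.25, SE 0.0186, limma adjusted p = 4.48e-05), with the smallest adjusted p of the SR genes. Their log2 ratio differed by 0.02 between the groups (exact permutation test, p = 0.657). The other rises were smaller: SRSF6 from 149 ± 3.06 to 175 ± 6.62 CPM (log2 change 0.22, limma adjusted p = 0.000867), SRSF4 from 81.5 ± 5.17 to 91.6 ± 1.18 CPM (0.17, adjusted p = 0.0147) and SRSF5 from 92.9 ± 4.32 to 103 ± 3.73 CPM (0.15, adjusted p = 0.0202). Of the SRSF6 words, 19.2% are shared with 125 other genes, and the part of shared reads was not tested. Under quantile normalization SRSF4 (0.06, adjusted p = 0.284) and SRSF5 (0.04, adjusted p = 0.439) lost their calls while SRSF6 (0.12), TRA2A (0.16) and TRA2B (0.15) kept theirs with smaller changes, and SRSF5 also lost its call without low glucose replicate 2 (adjusted p = 0.0539) or high glucose replicate 3 (adjusted p = 0.0509).

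The best known SR genes did not pass. SRSF1, the founding member, was at 248 ± 2.75 CPM under low and 241 ± 6.11 CPM under high glucose (log2 change -0.04, adjusted p = 0.141), but it passed as lower by limma without high glucose replicate 1 (-0.06, adjusted p = 0.0127) and under quantile normalization (-0.12, adjusted p = 0.00178). SRSF2, a component of nuclear speckles, was at 196 ± 6.47 and 201 ± 13.9 CPM (0.04, adjusted p = 0.576), and SRSF3, which also acts in mRNA export, was at 294 ± 3.23 and 307 ± 21.8 CPM (0.06, adjusted p = 0.372). SRSF8, SRSF9 and SRSF11 had log2 changes of -0.01, -0.01 and 0.05. SRRM1, a splicing coactivator without an RNA recognition motif, was at 108 ± 7.10 and 125 ± 12.5 CPM (0.20, adjusted p = 0.0894), and it passed when only genes of at least 5 CPM were tested (adjusted p = 0.0284) and without high glucose replicate 1 (0.26, adjusted p = 0.0201 by limma). SRSF12, an SR-related protein known to oppose other SR proteins, was the SR gene that fell, from 2.88 ± 0.611 to 1.80 ± 0.154 CPM (log2 change -0.46, SE 0.116, limma adjusted p = 0.0148), at a level where few reads stand behind each value. Its call was lost under quantile normalization (-0.32, adjusted p = 0.0544).

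PTBP1, the polypyrimidine tract-binding protein that represses many neuronal exons, rose. Its low glucose libraries held 192, 201, 196 and 202 CPM and its high glucose libraries held 262, 247, 249 and 229 CPM. The groups did not overlap, and the log2 change was 0.32 (SE 0.0415, limma adjusted p = 0.000659). PTBP3, a widely expressed paralog, had 81.9, 81.2, 79.8 and 77.9 CPM at low and 92.6, 103, 113 and 111 CPM at high glucose (log2 change 0.38, SE 0.0627, limma adjusted p = 0.00211). PTBP2, the neuronal paralog that PTBP1 is known to repress through exon skipping, also rose, from 15.6 ± 0.345 to 18.2 ± 1.47 CPM (log2 change 0.21, adjusted p = 0.0229), but lost its call in 5 of the 8 fits with 1 library left out, at adjusted p from 0.0573 to 0.0593: those without low glucose replicate 1 or 4, or high glucose replicate 2, 3 or 4. All 3 PTBP genes thus rose, and the ratios of PTBP1 to PTBP2 and to PTBP3 differed by 0.11 and -0.06 on the log2 scale (exact permutation p = 0.286 and 0.6).

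RBFOX2, which binds UGCAUG and is known for the mesenchymal splicing program, was well expressed at 175 ± 2.81 CPM under low and 185 ± 17.4 CPM under high glucose and did not pass the test (log2 change 0.07, adjusted p = 0.416). The epithelial regulators ESRP1 and ESRP2 were at the edge of detection. ESRP1 lay between 0.239 and 0.849 CPM over all 8 libraries and ESRP2 between 0.291 and 1.07 CPM, against a floor of 0.212 to 0.267 CPM, and neither passed (adjusted p = 0.472 and 0.364).

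Ratios were computed for 16 pairs of related members, and 7 reached the smallest possible p of 0.0286. After adjustment over the 16 pairs these 7 had an adjusted p of 0.0653 and none passed, and 4 against 4 libraries give only 70 assignments. With so few assignments a pair could pass only if most of the 16 pairs reached the smallest p. The adjusted p therefore does not measure how far any single pair shifted. By size, HNRNPA1 to HNRNPA2B1 was followed by HNRNPH1 to HNRNPH3 (-0.46 on the log2 scale), SRSF3 to SRSF7 (-0.39) and HNRNPUL1 to HNRNPUL2 (-0.38). In these 3 pairs the relative that rose more is the second of the pair. Smaller shifts without overlap were found for HNRNPH1 to HNRNPF (-0.14), HNRNPD to HNRNPDL (-0.11) and HNRNPL to HNRNPLL (0.15). Under quantile normalization the ratio of HNRNPH1 to HNRNPF turned to 0.02. The other 9 pairs overlapped between groups, with exact permutation p from 0.0571 to 0.743.

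**Figure D3:**
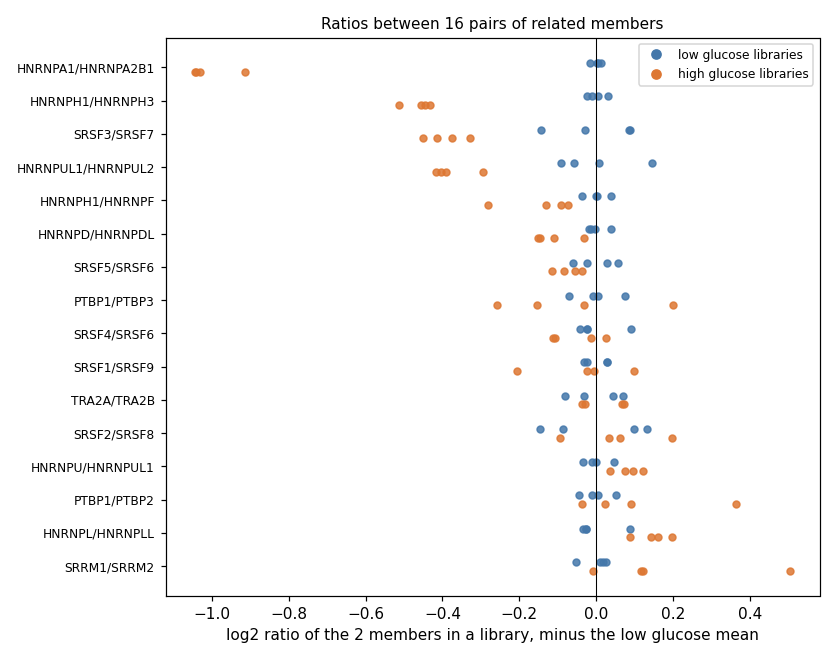
Each row is a pair of related genes, and each point is the log2 ratio of both CPM values (pseudocount 1) in 1 library, shifted so that the mean of the low glucose libraries is 0 (blue, low glucose; orange, high glucose; n = 4 each). The HNRNPA1 to HNRNPA2B1 ratio shifts by -1.01, more than the -0.46 of HNRNPH1 to HNRNPH3, while TRA2A to TRA2B stays within its spread at 0.02.

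SRRM2, a large scaffold protein of nuclear speckles, shows how high glucose replicate 1 bears on some members, and it was singled out after its values were seen. It had 561, 605, 580 and 618 CPM at low glucose, and 419 CPM in high glucose replicate 1 but 660, 683 and 668 CPM in replicates 2 to 4. With all libraries the log2 change was 0.01 (adjusted p close to 1), and without replicate 1 it was 0.18 (limma adjusted p = 0.00814). SRRM2 has the longest annotated transcript of the members, 9044 bases. Over 11223 genes of at least 5 CPM with a length, the difference of replicate 1 from the rest of its group had a Spearman correlation of -0.65 with transcript length. The values for replicates 2 to 4 were 0.25, 0.34 and 0.47. Over the 39 members of at least 5 CPM the same correlation was -0.35 for replicate 1. It was 0.06 for replicate 2, 0.17 for replicate 3 and 0.35 for replicate 4. Within a gene the differences of the 4 replicates cancel out, so a trend in replicate 1 pushes the others the opposite way. The positive values therefore cannot show whether replicate 4 deviated by itself, and a rank correlation does not measure the size of a deviation. Each of these correlations is a description over genes of 1 library, which share its preparation and depth. SRSF9, with 1152 bases the shortest of these 39, was higher in replicate 1 (115 CPM) than in replicates 2 to 4 (95.5, 89.7 and 96.2 CPM). HNRNPA0 went against the trend, since its transcript of 8713 bases was higher in replicate 1 (161 CPM) than in replicates 2 to 4 (139, 137 and 137 CPM). Without replicate 1, 23 members were higher and 7 lower. When the trend on length was taken out 19 were higher and 6 lower, and HNRNPA0 lost its call (adjusted p = 0.155). In that setting SRRM2 did not rise, with a log2 change of -0.02 (limma adjusted p = 0.864). The cause of this deviation was not tested.

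**Figure D4:**
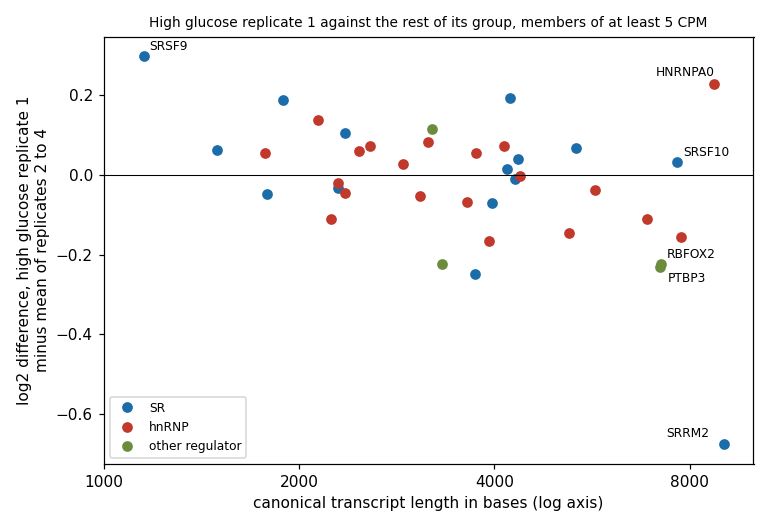
Each point is 1 of the 39 members of at least 5 CPM, with the length of its canonical transcript in bases on a log axis and the log2 difference between high glucose replicate 1 and the mean of replicates 2 to 4 on the vertical axis (color, class). SRRM2, the longest at 9044 bases, lies lowest, and over all 39 points the Spearman correlation is -0.35. The same correlation for replicate 4 is 0.35, which is not independent of the value for replicate 1.

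Other splicing genes, from 8 lists without the members, moved in similar proportions. Of the 113 genes found of 114 listed, 52 rose, 16 fell and 45 did not pass, so 60.2% passed, beside 46.8% of all genes and 66.9% of genes of at least 5 CPM. As higher 46.0% passed, beside 22.0% and 33.6%, and as lower 14.2%, beside 24.8% and 33.3%. The median log2 change was 0.18, against -0.01 over all genes, and the counts of the single lists are to be read beside the same background. Among kinases and import factors of SR proteins 6 of 10 rose and 1 fell (median 0.25). DYRK1A, a kinase of splicing factors, rose from 117 to 179 CPM (0.60, limma adjusted p = 4.63e-05) and CLK1, which phosphorylates SR proteins, from 73.1 to 97.0 CPM (0.40, adjusted p = 0.000168), whereas the related CLK2 fell from 35.0 to 28.6 CPM (-0.28, adjusted p = 0.000132). In the U2 snRNP and 3′ splice site list 10 of 16 rose and none fell by limma (median 0.27), led by the helicase DHX15 (0.40), the subunit SF3A1 (0.58) and the branch point protein SF1 (0.36). The U1 snRNP list was split, with 2 of 6 higher, among them LUC7L2 (0.38), and 2 lower, SNRNP70 (-0.21) and LUC7L (-0.28). Of 14 tri-snRNP proteins 4 rose, with DDX23 (0.33), PRPF3 (0.24) and TXNL4A (0.48) foremost, and 1 fell (median 0.09). Of 14 Sm and LSm proteins, the ring that holds spliceosomal RNA, 5 rose and 2 fell (median 0.07), and LSM3 (0.55), SNRPD3 (0.40) and SNRPD1 (0.19) were among the rises.

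Of the 17 other hnRNP-like proteins 5 rose and 6 fell (median 0.02), with ELAVL1, which stabilizes AU-rich mRNA, at 0.50, TARDBP at 0.30 and the cold-inducible CIRBP at -0.51. Of 26 other alternative splicing regulators 14 rose and 4 fell (median 0.34), and QKI, a regulator of mesenchymal splicing and circular RNA, rose from 152 to 224 CPM (0.56, limma adjusted p = 5.48e-05) and CELF1 from 113 to 156 CPM (0.46). KHDRBS3, a STAR family protein, went from 1.98 ± 0.133 to 8.79 ± 0.740 CPM, the largest change among these genes (1.72, limma adjusted p = 4.89e-06). In the nonsense-mediated decay list, the pathway that acts on poison exon transcripts, 6 of 10 rose and none fell by limma (median 0.32), and UPF1 (0.60), SMG5 (0.42) and UPF3B (0.50) had the smallest adjusted p.

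**Figure D5:**
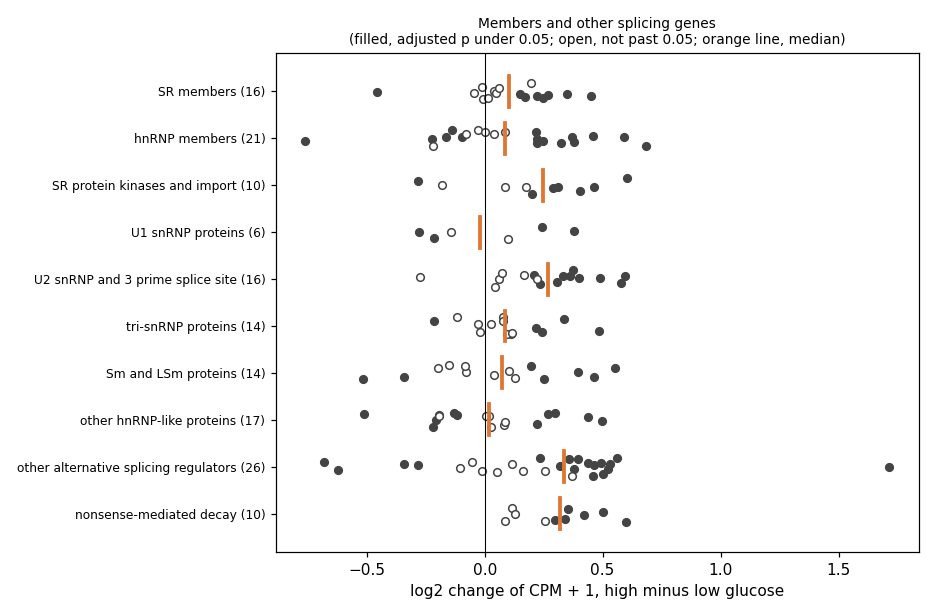
Each point is 1 gene at its log2 change of CPM + 1 (high minus low glucose), in rows for the 16 SR members, the 21 hnRNP members and 8 lists of other splicing genes, with the number of genes in brackets; filled points passed an adjusted p of 0.05 and orange lines are medians. Medians run from -0.02 for U1 snRNP proteins to 0.34 for other alternative splicing regulators, and the SR and hnRNP medians are 0.10 and 0.08.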

How the data were processed

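RNA from 8 libraries of MDA-MB-157 cells was compared. The authors deposited 1 table of TMM-scaled CPM made with edgeR, and the labels name hg38 while the methods describe hg19 alignment for tumors, so the build, the counting tool and its use of strand are not established for this table. Of its 21077 lines, 18 pseudoautosomal Y copies identical to their X copies were left out. Only 75.3% to 76.5% of low values were whole steps of 1 read, so whole reads were not recovered and no count test was run.

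Values were analyzed as log2(CPM + 1) with limma 3.58.1 in R 4.3.3 (trend, no covariate, 2-sided), adjusted by Benjamini-Hochberg over 21059 genes, after tests on simulated data. A log2 change on this scale understates changes of low genes. Ratios were tested with exact permutation tests (scipy 1.17.1).

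The members and lists were chosen with earlier results of these data known. Libraries were grouped by title. Values in every library are given for the 12 called members of at least 5 CPM with the largest change and for the 5 of highest mean, and at most 3 genes per other list, those of smallest adjusted p, are named. Positions and lengths are from GENCODE 44 on GRCh37 and describe the annotation. Shared sequence is the percent of 31-base words found in other genes. Alternatives were the pseudocount, a filter on low values, 2 other scalings, removal of the length trend, a replicate block and leaving out each library.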

Additional observations from a re-analysis of the deposited data

Results flagged for a closer look

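In each gene the 4 libraries of a group were examined for 1 library far from the other 3 (Dixon's ratio of gap to range above its 95% critical value). Of the 86 groups 5 met this, where chance gives about 1 in 20, or 4.3. HNRNPA1 was highest in low glucose replicate 3, at 1065 CPM. SRRM2 was lowest in high glucose replicate 1, at 419 CPM. RBFOX2 was lowest in low glucose replicate 2, at 171 CPM. ESRP2 was highest in low glucose replicate 3, at 0.680 CPM. HNRNPA0 was highest in high glucose replicate 1, at 161 CPM. Both library deviations at high glucose were in replicate 1, and their causes were not tested.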

How the results depend on the processing

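Of the 26 called members 18 kept their call under all alternatives that were run (14 per member, 13 for SRSF12, which the filter at 5 CPM leaves out), 8 lost it in at least 1 and none changed sign. Counts of higher and lower members were 21 and 5 with only genes of at least 5 CPM, 20 and 4 with median-of-ratios scaling, 17 and 7 with quantile normalization, and 18 to 23 and 5 to 7 with 1 library left out. The median of SR genes was 0.149 without genes under 5 CPM, 0.146 with median-of-ratios scaling and 0.0562 with quantile normalization, and from 0.0897 to 0.156 with 1 library left out, highest without high glucose replicate 1. For hnRNP genes the median was 0.151 without genes under 5 CPM and 0.127 with median-of-ratios scaling. It was 0.0965 with quantile normalization and 0.0380 with the length trend removed. The median of members was 0.0716 with quantile normalization and from 0.102 (without high glucose replicate 4) to 0.172 with 1 library left out. Same-numbered libraries of both groups correlated at 0.07, -0.03, 0.01 and -0.04, so the numbers were not taken as pairs. With the replicate block 20 members were higher and 4 lower, HNRNPA0 (adjusted p = 0.0539), HNRNPM (0.0569) and SRSF12 (0.0622) lost their calls and SRRM1 (0.0409) gained one.

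Changes near 0 turned sign, none of them in a called member. With median-of-ratios scaling these were HNRNPDL (0.0147), SRSF9 (0.0319) and SRSF8 (0.0295). With quantile normalization they were SRSF8 (0.105), HNRNPUL1 (-0.112), HNRNPR (-0.0826), SRSF2 (-0.0686), SRSF11 (-0.0846), SRSF3 (-0.0189) and RBFOX2 (-0.0438), and the ratios of PTBP1 to PTBP2 (-0.0452), HNRNPH1 to HNRNPF (0.0196) and SRSF2 to SRSF8 (-0.174). With the length trend removed they were SRSF9 (0.0698), HNRNPUL1 (-0.0352), SRRM2 (-0.0221) and HNRNPR (-0.00426), and the ratios of SRSF4 to SRSF6 (0.00919) and SRSF5 to SRSF6 (0.0348). With 1 library left out, the ranges that crossed 0 were -0.0525 to 0.182 for SRRM2, -0.0667 to 0.0376 for SRSF8, -0.0847 to 0.0356 for SRSF9, -0.0327 to 0.0444 for HNRNPUL1, -0.00748 to 0.0631 for SRSF2 and -0.00887 to 0.0773 for HNRNPR, and for ratios -0.00934 to 0.0414 for TRA2A to TRA2B, -0.000529 to 0.0967 for SRSF2 to SRSF8, -0.0782 to 0.0230 for SRSF1 to SRSF9 and -0.148 to 0.00442 for PTBP1 to PTBP3. No ratio passed under any alternative run. With 1 library left out or with the replicate block the smallest possible p is above 0.05, so no ratio could pass there. In the other settings a ratio could pass only if most pairs reached the smallest p. The cause of these shifts was not tested. Of the members, ESRP1 and ESRP2 lay nearest to the floor of 3 reads, at means under 1 CPM.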
